A study of Mus musculus with 15 samples.

Results

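The 40 mitosis genes described here are transcribed mainly in G2 and M, the phases in which a cell prepares for and carries out division. They were taken from a list of gene names that was chosen with earlier results of these data known. The list holds cyclins and Cdk1, mitotic kinases and checkpoint proteins, partners of the anaphase-promoting complex, kinetochore, chromosome and spindle proteins, and proteins of cytokinesis. For that choice, its shares beside those of all genes are descriptions only. All 40 were among the 23154 genes in the deposited tables, and all 40 passed the filter on low levels that left 10665 genes for testing. The data are single-cell RNA-seq of embryonic mouse heart cells in 15 libraries. Every group carried the Rosa26tdTomato reporter, switched on by Nkx2-5Cre or by Isl1Cre, at 1 of 4 stages between E7.75 and E9.25 (E for embryonic day). This gives 8 groups of 2 libraries each, except Isl1Cre at E9.25, which has 1. The reporter stays on in the descendants of a cell in which Cre has acted, so it marks a history of Nkx2-5 (early cardiac cells) or Isl1 (largely progenitors of the second heart field) and not present expression of either gene. In 7 of the groups both library titles carry the same embryo number. Stage or lineage therefore cannot be told apart from embryo, and the p-values reflect how far libraries of a group differ and nothing more; that spread may be technical.

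Mitotic entry is driven by Cdk1 bound to cyclin A or B. Exit from mitosis requires the anaphase-promoting complex, which marks cyclin B and securin for destruction once the spindle checkpoint is satisfied. Transcription of many genes of this programme is repressed early in the cycle by the DREAM complex and activated late by B-Myb and FoxM1. These act largely through the promoter element CHR. CCAAT, the other element searched for below, is bound by a separate CCAAT-binding factor. In the mouse heart, progenitors and early cardiomyocytes still divide while the contractile apparatus is being built.

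Promoters of 35 of the 40 genes were found in the RefSeq table for GRCm38.p6, as 37 windows of 300 bases (250 before the start to 50 after it). They were searched on both strands for CHR letters, TTTGAA or TTCGAA (the latter is its own reverse complement), and for CCAAT; matches of the 2 motifs can share at most 1 base. CHR letters stood in 28 of the 37 windows, 75.7%, against 19.2% of all promoters of the same length. At least 1 CCAAT was found in 78.4% of the members' windows against 37.4% of all, and 2 or more CCAAT in 62.2% against 11.7%. Both motifs were present in 24 windows, 64.9%, against 7.52% of all promoters. A match is a description of letters and does not show that a factor binds there. The 120 bases before the start of 7 members are printed 5′ to 3′ on the gene's strand, with the matches in capitals (ATTGG and TTCAAA are the motifs on the other strand). They are the genes on which the results below turn: 5 with CHR letters, Ccnb1 with CCAAT letters alone, and Kif20b with neither in these bases.

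Ube2c, chr2:164769809-164769928, plus strand: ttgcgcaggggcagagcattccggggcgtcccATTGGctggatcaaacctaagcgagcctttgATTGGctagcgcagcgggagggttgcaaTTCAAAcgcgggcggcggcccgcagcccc
Cdk1, chr10:69352913-69353032, minus strand: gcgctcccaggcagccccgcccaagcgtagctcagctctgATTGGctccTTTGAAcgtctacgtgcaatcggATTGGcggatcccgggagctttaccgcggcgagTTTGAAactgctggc
Cdc20, chr4:118437344-118437463, minus strand: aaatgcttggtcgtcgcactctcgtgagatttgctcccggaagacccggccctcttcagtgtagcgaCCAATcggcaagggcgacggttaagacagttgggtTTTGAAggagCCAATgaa
Top2a, chr11:99024190-99024309, minus strand: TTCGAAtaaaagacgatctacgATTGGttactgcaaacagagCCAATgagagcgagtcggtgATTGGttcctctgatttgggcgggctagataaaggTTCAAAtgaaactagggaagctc
Mki67, chr7:135716380-135716499, minus strand: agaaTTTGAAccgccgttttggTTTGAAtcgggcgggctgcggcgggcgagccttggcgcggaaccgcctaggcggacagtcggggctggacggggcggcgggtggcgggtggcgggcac
Ccnb1, chr13:100786487-100786606, minus strand: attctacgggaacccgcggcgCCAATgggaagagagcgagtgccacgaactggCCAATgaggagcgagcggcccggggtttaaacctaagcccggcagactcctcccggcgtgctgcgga
Kif20b, chr19:34922238-34922357, plus strand: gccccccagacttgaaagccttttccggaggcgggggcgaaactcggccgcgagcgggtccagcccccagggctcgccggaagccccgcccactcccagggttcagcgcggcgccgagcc

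In the printed bases, Cdk1 and Ube2c carry a pair of CCAAT matches upstream of CHR letters, Top2a has 3 CCAAT matches, and Mki67 has 2 CHR matches and no CCAAT. The whole 300-base windows hold more, with 6 CCAAT matches for Ube2c, 6 for Top2a and 3 each for Cdk1 and Mki67. The CHR letters of Kif20b lie after its start, with 2 matches in the 300-base window. No CHR letters were found for 8 genes, Birc5, Ccnb1, Cenpe, Cks2, Gtse1, Nuf2, Nusap1 and Tacc3; among these, Birc5, Nuf2, Nusap1 and Tacc3 also lacked CCAAT in this window.

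Every kept cell of every library had at least 1 count among the 40 genes. The summed level of the 40 genes, as mean CPM (a cell's counts scaled to a common total) over the cells of a library, was 5461 and 6274 in the 2 Nkx2-5Cre libraries at E7.75, 4697 and 5347 at E8.25, 3423 and 4059 at E8.75, and 4558 and 4673 at E9.25. In the Isl1Cre libraries it was 6258 and 6411 at E7.75, 5254 and 5674 at E8.25, 4037 and 4231 at E8.75, and 5591 in the single library at E9.25. The E8.75 libraries of each lineage were the lowest and did not overlap those of the other 3 stages, and the E7.75 libraries were the highest. In such library means, fewer cells of a dividing type and less RNA per cell cannot be told apart.

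The low level at E8.75 was also seen when each cell was scored first and the scores were averaged by library. A score per cell, the mean of log2(CPM + 1) over the 40 genes, averaged 5.79 ± 0.41 in Nkx2-5Cre at E7.75 (SD over libraries, n = 2) and 4.76 ± 0.02 at E8.25, followed by 3.99 ± 0.13 at E8.75 and 4.35 ± 0.29 in the E9.25 libraries. The Isl1Cre means were 5.49 ± 0.13, 5.42 ± 0.12 and 3.95 ± 0.02 at the same first 3 stages, and 5.06 in the single library at E9.25. The lineages thus stood apart at E8.25 and were close at E8.75, and within a library single cells spread far more, with SDs of 1.19 to 1.92. The median score of a library was 5.40 to 6.36 at E7.75 and 3.45 to 3.64 at E8.75. The 95th percentile differed less, at 7.02 to 7.31 and 6.76 to 7.03. The score was positively correlated with a cell's total counts in all 15 libraries (Spearman rho 0.18 to 0.62), and the median counts per cell ranged from 92068 to 360929, the latter in Nkx2-5Cre E7.75 replicate 1. Cells were therefore also thinned to 5000 counts each, which left 1282 of 1332 kept cells and 56 to 92 cells per library.

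At this equal depth the median cell had counts for 7.5 to 17 of the 40 genes. Both E7.75 pairs and Isl1Cre at E8.25 were at 14 to 17, and the E8.75 libraries were at 7.5 to 10. The share of cells with 10 or more of the genes was 86.5% to 94.0% at E7.75 and 40.2% to 54.1% at E8.75. Nkx2-5Cre at E9.25 was at 46.7% and 52.2%, and the Isl1Cre E9.25 library at 69.8%. Without thinning the medians were 26 to 40. Thinned cells with none of the 40 genes occurred in Nkx2-5Cre E8.25 replicate 1, Nkx2-5Cre E9.25 replicate 1 and Isl1Cre E8.75 replicate 1. In the last of these libraries, 10.7% of thinned cells had 2 or fewer of the genes. The thinned score kept the order of the stages in each lineage, with means of 3.24, 2.60, 2.12 and 2.34 from E7.75 to E9.25 in Nkx2-5Cre and 3.38, 3.01, 2.18 and 2.89 in Isl1Cre.

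**Figure D1:**
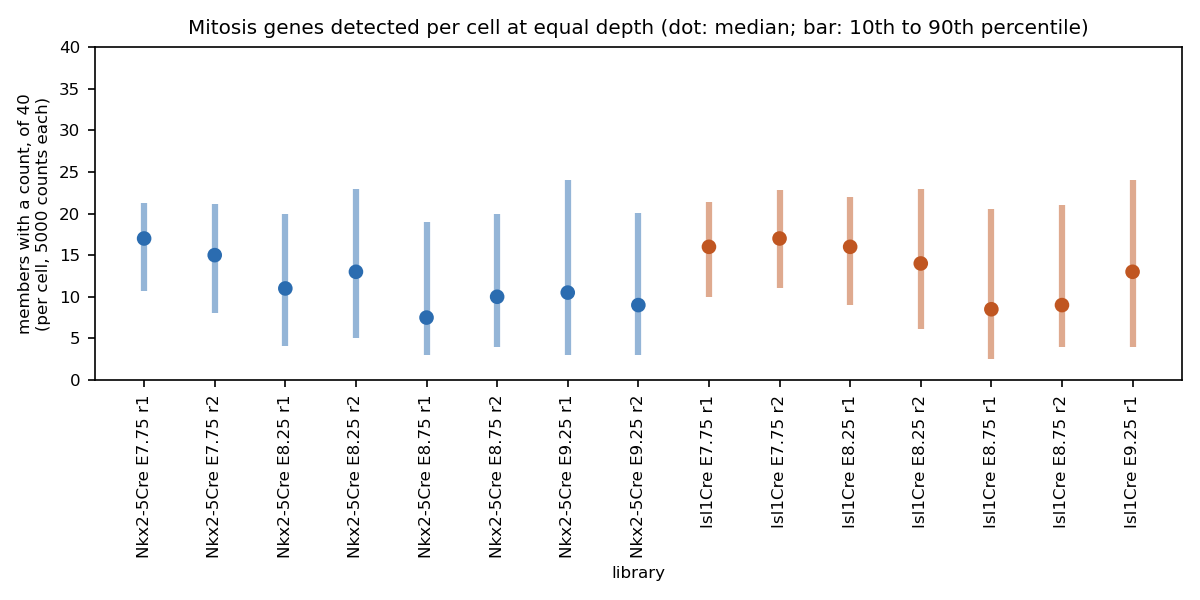
Number of the 40 mitosis genes with at least 1 count in a cell thinned to 5000 counts, by library. Dots are medians and bars run from the 10th to the 90th percentile of cells. Medians were 15 to 17 at E7.75 and 7.5 to 10 at E8.75.

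Summed levels of cell type markers moved with stage. In these sums, too, more cells of a type and more of its RNA per cell cannot be told apart. The summed level of 20 cardiomyocyte markers was 19560 to 21100 CPM in Nkx2-5Cre and 9000 to 10441 CPM in Isl1Cre at E7.75, and 48270 to 67211 CPM in all libraries at E8.75 and E9.25. The sum of 13 endoderm markers was highest in Isl1Cre at E8.25 (3111 and 3173 CPM) and at E7.75 (1756 to 2976 CPM), and 665 to 1197 CPM in the other libraries. The sum of 10 blood markers was 1179 and 1413 CPM in Nkx2-5Cre at E8.75 and 220 CPM in Isl1Cre at E9.25, against 1.59 to 30.5 CPM elsewhere. The sum of 4 Y-linked genes was 68.8 to 137 CPM in the libraries of Nkx2-5Cre at E7.75 and E8.75 and of Isl1Cre at E8.75 and E9.25, and at most 3.82 CPM in the rest. The E8.75 libraries are thus all Y-positive, and at E7.75 and E9.25 the lineages differ in this respect. The part of these differences in the results on the mitosis genes was not tested.

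Gene by gene, 31 of the 40 members had their lowest group mean at E8.75 in Nkx2-5Cre and 34 of 40 in Isl1Cre. Of all genes tested, 24.7% and 21.0% were lowest there. The highest mean was at E7.75 for 27 and 25 members, against 37.1% and 27.2% of all genes tested. The ratio of a member's highest to its lowest library was 1.47 for Dlgap5, 2.53 at the median and 8.15 for Gtse1.

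**Figure D2:**
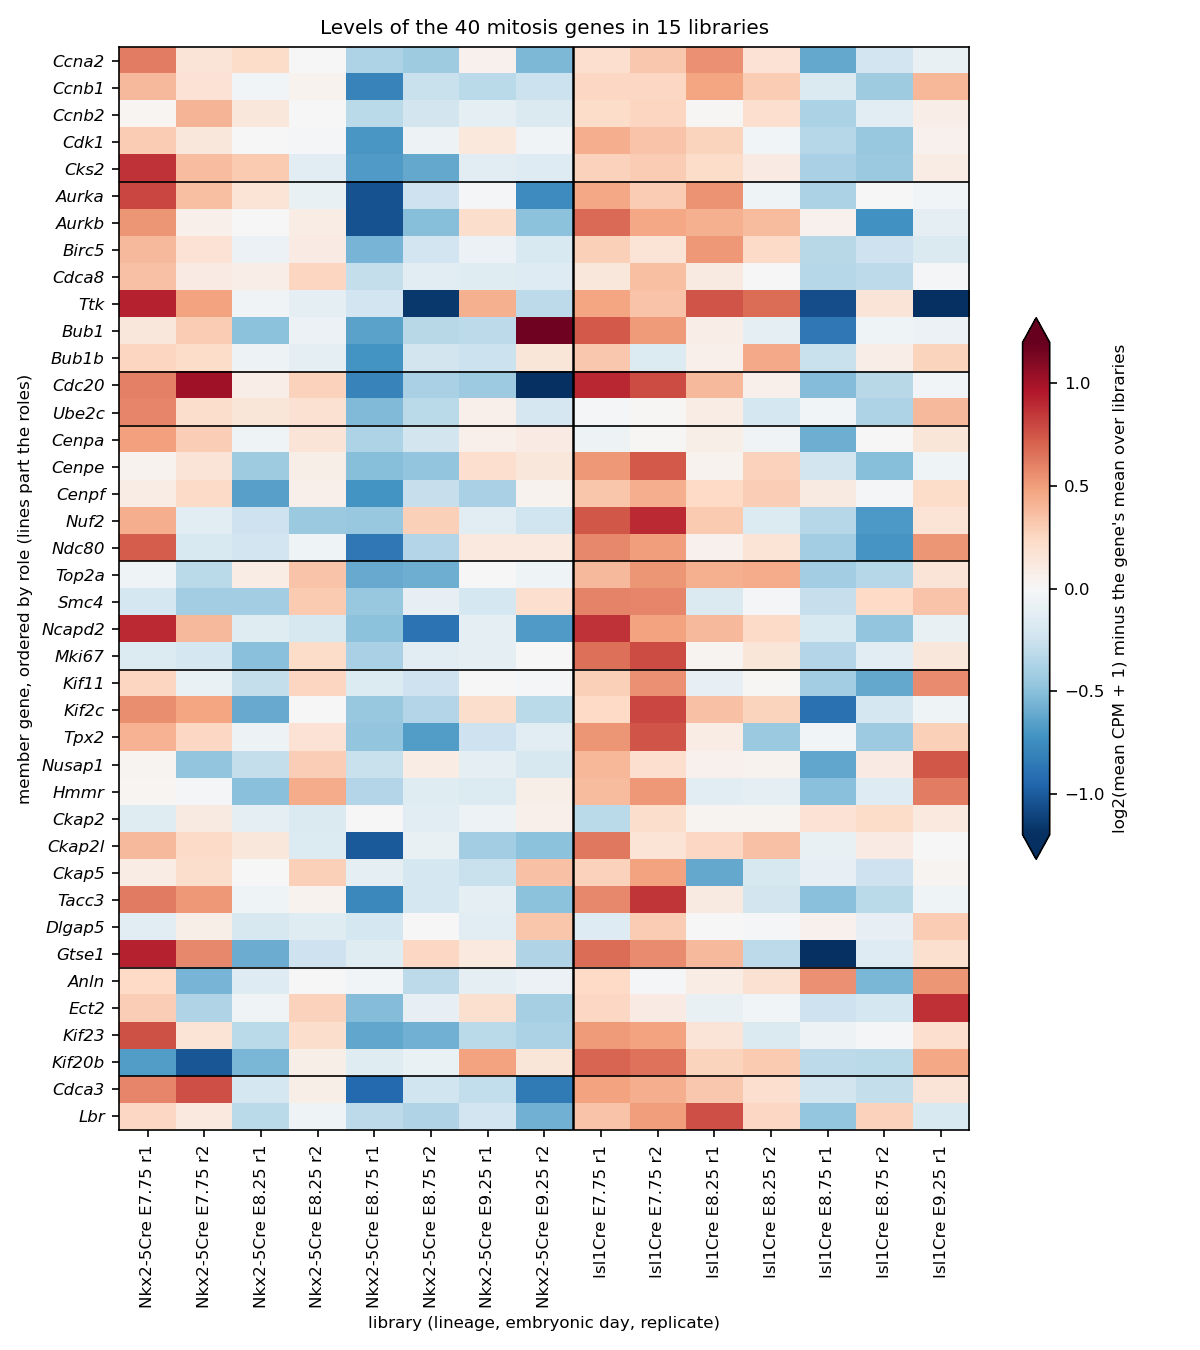
Level of each of the 40 genes in each library, as log2(mean CPM + 1) minus the gene's mean over the 15 libraries; red is higher and blue lower, and values beyond 1.2 in either direction take the end colours. Genes are ordered by role. The E8.75 columns are mostly blue and the E7.75 columns mostly red, with Kif20b blue in Nkx2-5Cre at E7.75.

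A linear slope per day over the 4 stage means was tested in each lineage with limma on log2(mean CPM + 1), with Benjamini-Hochberg adjustment over all genes tested. In Nkx2-5Cre, 15 of the 40 members fell with stage and 1 rose; 11.6% of all genes tested fell and 13.2% rose. In Isl1Cre, 7 members fell and none rose, with 10.2% of all genes tested falling and 13.0% rising. The median member slope was -0.27 log2 units per day in Nkx2-5Cre and -0.22 in Isl1Cre, beside -0.01 over all genes in each. Birc5, Cdc20, Ncapd2 and Tacc3 fell in both lineages. The Isl1Cre calls of Birc5 and Cdc20 were lost in most alternatives, as given with their values. The Nkx2-5Cre count of 16 was 9 without Nkx2-5Cre E7.75 replicate 1 and 8 without Nkx2-5Cre E9.25 replicate 2. The Isl1Cre count of 7 was 2 without Isl1Cre E7.75 replicate 2, 4 without Isl1Cre E7.75 replicate 1 or E8.25 replicate 1, and 25 without the Isl1Cre E9.25 library, when the median member slope there was -0.73. Without the E7.75 libraries no member passed in Nkx2-5Cre and 1 in Isl1Cre, where the median member slope was then 0.10.

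**Figure D3:**
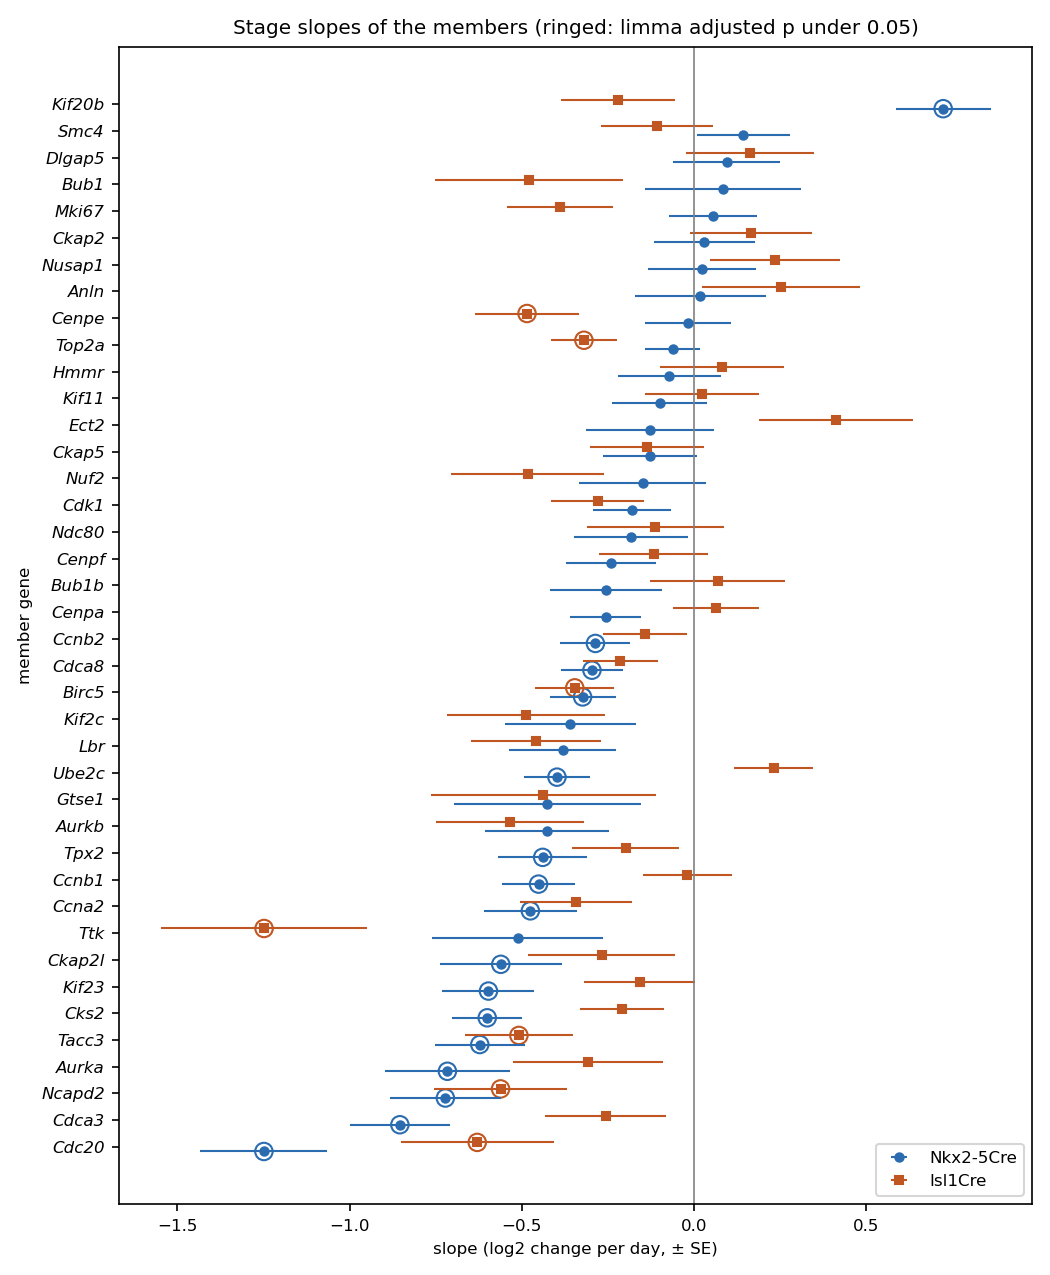
Slope of each member over the 4 stages, in log2 change per day with its standard error, for Nkx2-5Cre (circles) and Isl1Cre (squares). Ringed points passed an adjusted p of 0.05 in limma: 16 in Nkx2-5Cre, of which Kif20b alone rose, and 7 in Isl1Cre.

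The group mean of each of the 5 genes for cyclins, Cdk1 and Cks2 was lowest at E8.75 in each lineage. Ccnb1 encodes cyclin B1, the partner of Cdk1 at mitotic entry. Its level in Nkx2-5Cre was 280.3 and 241 CPM at E7.75, 209 and 219 at E8.25, 122 and 177 at E8.75, and 170.1 and 179 at E9.25. The Isl1Cre libraries had 254 and 253 CPM at E7.75, 298 and 264 at E8.25, 189 and 159 at E8.75, and 282 at E9.25. The Nkx2-5Cre libraries of E7.75 were above those of all later stages, and the slope was -0.45 ± 0.11 log2 units per day (SE; limma adjusted p = 0.0049), whereas the E9.25 library of Isl1Cre was within its earlier range and the slope there was -0.02 ± 0.13 (adjusted p = 0.94).

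Cdk1 encodes the kinase itself, which phosphorylates many mitotic substrates. It measured 316 and 280.2 CPM at E7.75, 256 and 253 at E8.25, 158 and 245 at E8.75, and 279.5 and 248 at E9.25 in Nkx2-5Cre. In Isl1Cre it measured 346 and 325, 308 and 249, 201 and 186, and 265 CPM at the same stages. Cdk1 did not pass in either slope (-0.18 ± 0.11, adjusted p = 0.26, and -0.28 ± 0.14, adjusted p = 0.16), and its lineages overlapped at every stage but E7.75.

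Cks2, the small subunit that docks Cdk1 complexes onto substrates, fell in Nkx2-5Cre from 472 and 334 CPM at E7.75 through 321 and 235 to 161 and 168 at E8.75, with 237 and 232 at E9.25. All values after E7.75 lay below both of E7.75. The slope was -0.60 ± 0.10 (adjusted p = 0.0003). Isl1Cre had 314 and 319, 301 and 277, 197 and 190.1, and 275 CPM, with a slope of -0.21 ± 0.12 (adjusted p = 0.25). Ccna2 (cyclin A2) and Ccnb2 (cyclin B2) also fell in Nkx2-5Cre, by 0.47 and 0.29 log2 units per day. This makes 4 of the 5 genes of this role there and none in Isl1Cre, beside 11.6% and 10.2% of all genes tested. The slopes of these 5 genes were not shown to differ between the lineages.

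Among the 7 kinase, checkpoint and passenger complex genes, Aurka, Birc5 and Cdca8 fell in Nkx2-5Cre and Ttk and Birc5 in Isl1Cre. Aurka encodes Aurora A, the kinase of centrosome maturation. Its Nkx2-5Cre levels were 140.1 and 103 CPM at E7.75, 89.8 and 75.3 at E8.25, 38.4 and 67.1 at E8.75, and 79.4 and 46.9 at E9.25, a slope of -0.72 ± 0.18 (adjusted p = 0.0075). Isl1Cre ranged from 61.2 to 117 CPM with stages that overlapped, and its slope was -0.31 ± 0.22 (adjusted p = 0.35).

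Ttk encodes Mps1, a kinase of the spindle checkpoint. It was measured at 27.9 and 25.4 CPM in Isl1Cre at E7.75, 34.2 and 32.1 at E8.25, 8.96 and 22.1 at E8.75, and 7.33 at E9.25. The single E9.25 library was the lowest, and the slope was -1.25 ± 0.30 (adjusted p = 0.0049); Ttk did not pass without that library. Nkx2-5Cre had 38.5 and 28.1, 19.2 and 18.3, 16.7 and 8.32, and 26.9 and 15.8 CPM, with a slope of -0.51 ± 0.25 (adjusted p = 0.14).

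Birc5 encodes survivin, a subunit of the chromosomal passenger complex that brings Aurora B to centromeres. It was 353 and 303 CPM at E7.75 and 183 and 230.1 at E8.75 in Nkx2-5Cre, with 257, 288, 256 and 238 in between and after. Isl1Cre had 329 and 302 CPM at E7.75, 386 and 316 at E8.25, 214 and 227 at E8.75, and 238 at E9.25. E8.75 was the lowest stage in each lineage without overlap, and the slopes were -0.32 ± 0.10 (adjusted p = 0.019) and -0.35 ± 0.12 (adjusted p = 0.036). The latter call was lost in 3 of 7 removals of an Isl1Cre library. It was also lost in 7 of 10 other alternatives, DESeq2 and edgeR among them. Aurkb, Bub1 and Bub1b, which encode Aurora B and 2 checkpoint proteins, passed in no comparison. Bub1 stood at 109 CPM in Nkx2-5Cre E9.25 replicate 2 beside 38.4 in its partner library, and at 26.0 to 80.5 in all others.

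Of the 2 partners of the anaphase-promoting complex, Cdc20 fell in both lineages and Ube2c in Nkx2-5Cre. Cdc20, its mitotic activator, was 106 and 142 CPM in Nkx2-5Cre at E7.75, 73.6 and 84.3 at E8.25, 39.5 and 52.8 at E8.75, and 51.2 and 22.4 at E9.25. In Isl1Cre it was 131 and 120.4, 91.4 and 72.5, 48.4 and 55.1, and 68.0 CPM. Neither lineage's E7.75 libraries overlapped any later library. The slopes were -1.25 ± 0.18 (adjusted p = 7.6e-05), the steepest of all members in Nkx2-5Cre, and -0.63 ± 0.22 (adjusted p = 0.047). The latter call was lost in 5 of 7 removals of an Isl1Cre library, with a replicate block, and in DESeq2 and edgeR.

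Ube2c encodes the E2 enzyme that supplies ubiquitin to the complex. Its levels were 768 and 593 CPM at E7.75, 565 and 581 at E8.25, 354 and 409.8 at E8.75, and 535 and 444 at E9.25 in Nkx2-5Cre, and 507 and 518, 545 and 442, 500.1 and 394, and 671 CPM in Isl1Cre. The Nkx2-5Cre libraries were highest at E7.75 and lowest at E8.75, and the highest Isl1Cre library was that of E9.25. The slopes of -0.40 ± 0.10 (adjusted p = 0.0052) and 0.23 ± 0.11 (adjusted p = 0.16) differed by 0.63 ± 0.15 (adjusted p = 0.029).

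Of the kinetochore and chromosome structure genes, Cenpf, Top2a, Smc4 and Mki67 were higher in Isl1Cre on average over stages (tests below). Cenpf, a large kinetochore and nuclear matrix protein that accumulates in G2, was 233 and 258 CPM in Nkx2-5Cre at E7.75, 139 and 228 at E8.25, 133 and 181 at E8.75, and 167 and 225 at E9.25. It was 276 and 297, 259.6 and 269, 235 and 216, and 255 CPM in Isl1Cre. At each of the 4 stages the Isl1Cre libraries were above those of Nkx2-5Cre. Cenpe, a kinesin that moves chromosomes to the metaphase plate, fell in Isl1Cre from 116 and 135 CPM at E7.75 to 83.3 and 97.6, 69.1 and 56.3, and 77.9 CPM (slope -0.48 ± 0.15, adjusted p = 0.026). In Nkx2-5Cre it lay between 56.2 and 93.2 CPM, with a slope of -0.02 ± 0.13 (adjusted p = 0.94). Cenpa, Nuf2 and Ndc80 passed in no comparison.

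Top2a encodes topoisomerase II alpha, which untangles sister chromatids. It was 345 and 286 CPM at E7.75, 381 and 453 at E8.25, 235 and 238 at E8.75, and 359.8 and 346 at E9.25 in Nkx2-5Cre, and 468 and 516, 482 and 488, 267 and 283, and 397 CPM in Isl1Cre. Both lineages dipped at E8.75, and Isl1Cre was higher without overlap at each of the 4 stages. Its slope passed in Isl1Cre alone (-0.32 ± 0.10, adjusted p = 0.022, against -0.06 ± 0.08 and adjusted p = 0.62 in Nkx2-5Cre), and the slopes were not shown to differ. The Isl1Cre call was lost without Isl1Cre E7.75 replicate 2 and in 6 of 10 other alternatives, DESeq2 and edgeR among them. Mki67 encodes Ki-67, which coats mitotic chromosomes and is a common marker of cycling cells. It was 186 and 203 CPM in Isl1Cre at E7.75 and 91.7 to 129.8 in the later Isl1Cre libraries, against 82.6 to 137 in all Nkx2-5Cre libraries.

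Ncapd2 and Smc4 encode subunits of condensin, which compacts chromosomes. Ncapd2 was 83.9 and 58.7 CPM at E7.75, 40.3 and 38.9 at E8.25, 31.6 and 23.7 at E8.75, and 41.5 and 27.5 at E9.25 in Nkx2-5Cre. In Isl1Cre it was 82.4 and 62.9, 58.8 and 52.5, 39.2 and 31.9, and 41.9 CPM. The E7.75 libraries were the highest in each lineage, and the slopes were -0.72 ± 0.16 (adjusted p = 0.003) and -0.56 ± 0.19 (adjusted p = 0.042). Smc4 was highest in Isl1Cre at E7.75, at 450.4 and 449.9 CPM, and lay between 218 and 379 CPM in all other libraries.

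Of 11 spindle genes, Tacc3, Ckap2l and Tpx2 fell in Nkx2-5Cre and Tacc3 in Isl1Cre. Tacc3 stabilises microtubules of the spindle together with Ckap5. It was 180.1 and 167 CPM at E7.75, 112 and 120.005 at E8.25, 67.6 and 100.4 at E8.75, and 108 and 82.4 at E9.25 in Nkx2-5Cre, and 173 and 212, 125 and 99.9, 81.5 and 92.5, and 112 CPM in Isl1Cre. E7.75 stood above all later stages in each lineage, and the slopes were -0.62 ± 0.13 (adjusted p = 0.002) and -0.51 ± 0.16 (adjusted p = 0.025). In Isl1Cre the slope was 0.10 without the E7.75 libraries. Kif11, Kif2c, Nusap1, Hmmr, Ckap2, Dlgap5 and Gtse1 passed in no comparison.

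Cytokinesis genes included the single member that rose with stage. Kif20b, a kinesin of late mitosis and abscission, was 39.1 and 30.3 CPM in Nkx2-5Cre at E7.75, 42.6 and 65.8 at E8.25, 56.7 and 59.4 at E8.75, and 88.3 and 69.5 at E9.25. In Isl1Cre it was 102 and 99.1 at E7.75, 75.8 and 78.3 at E8.25, 50.3 and 49.99 at E8.75, and 86.9 CPM at E9.25. The Nkx2-5Cre libraries were lowest at E7.75, where the Isl1Cre libraries were highest. The slopes were 0.72 ± 0.14 (adjusted p = 0.00085) and -0.22 ± 0.17 (adjusted p = 0.38), and their difference, Isl1Cre minus Nkx2-5Cre, was -0.95 ± 0.22 (adjusted p = 0.023). Kif23, a subunit of the centralspindlin complex, fell in Nkx2-5Cre (-0.60 ± 0.13, adjusted p = 0.0032); Anln and Ect2 passed in no comparison. Kif20b and Ube2c were the only members among the genes with a difference between slopes, 1.89% of all genes tested being higher and 0.694% lower in Isl1Cre.

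Cdca3, which triggers destruction of the Wee1 kinase that restrains Cdk1, fell in Nkx2-5Cre from 146 and 166 CPM at E7.75 to 83.3 and 102, 50.1 and 81.8, and 78.8 and 53.3 CPM. All later libraries were below E7.75, and the slope was -0.85 ± 0.15 (adjusted p = 0.0003). In Isl1Cre it was 136 and 131, 121 and 112, 83.2 and 79.0, and 108 CPM (slope -0.26 ± 0.18, adjusted p = 0.33). Lbr, the lamin B receptor of the nuclear envelope, passed in no comparison.

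The steps between neighbouring stages, chosen for testing after the data were seen, give the change by stage. From E7.75 to E8.25 the median member changed by -0.27 log2 units in Nkx2-5Cre, where Cdca3, Cks2 and Ncapd2 fell and Top2a rose (5.91% of all genes tested fell and 7.92% rose). The Isl1Cre median was -0.28, and Tpx2, Ckap5, Tacc3, Smc4 and Mki67 fell (4.26% of all genes tested fell and 7.94% rose), with Mki67 at -0.71 ± 0.20 (adjusted p = 0.026). From E8.25 to E8.75 the medians were -0.36 and -0.39. Top2a fell in Nkx2-5Cre (-0.80, adjusted p = 0.0056; 0.113% of all genes tested fell and 0.131% rose), and Birc5, Ccna2, Ccnb1, Cks2 and Top2a fell in Isl1Cre (5.37% of all genes tested fell and 5.52% rose), Top2a by 0.77 log2 units (adjusted p = 0.00084). From E8.75 to E9.25 the medians turned to 0.23 and 0.44, with 34 and 37 of the 40 members above 0. Of these, Top2a passed in Nkx2-5Cre (0.56, adjusted p = 0.032, with 0.825% of all genes tested rising and 0.797% falling). None passed in Isl1Cre in limma, where 0.553% of all genes tested passed. These Isl1Cre values rest on 1 library at E9.25. Without Nkx2-5Cre E8.75 replicate 1 the Nkx2-5Cre medians were -0.18 for the step into E8.75 and 0.06 for the step out of it, and the Top2a call of the former was lost. The step calls of Cdca3 and of Top2a out of E8.75 in Nkx2-5Cre, and of Mki67, Smc4 and Cks2 in Isl1Cre, were each lost whichever of the 4 libraries involved was left out.

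The lineages were compared at each stage and as an average over the 4 stages. On average 6 of the 40 members were higher in Isl1Cre and none was lower, with 3.68% of all genes tested higher and 3.67% lower. The 6 were Kif20b (0.52 ± 0.12 log2 units, limma adjusted p = 0.0092), Cenpf (0.45 ± 0.11, adjusted p = 0.016), Smc4 (0.39 ± 0.11, adjusted p = 0.042), Mki67 (0.36 ± 0.11, adjusted p = 0.047), Ccnb1 (0.35 ± 0.09, adjusted p = 0.024) and Top2a (0.34 ± 0.07, adjusted p = 0.0047). The median member difference was 0.25 with 36 of 40 above 0, beside -0.01 over all genes tested. The calls of Smc4 and Mki67 were each lost in 11 of 15 removals of a library, in DESeq2 and edgeR and without TMM scaling. The count was 3 without Isl1Cre E8.25 replicate 1, and 1 without the E7.75 libraries (Ccnb1), with all cells (Top2a) or with cells at 5000 counts (Top2a).

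At E7.75 4 members were higher in Isl1Cre, and none was lower, with 3.33% of all genes tested higher and 3.8% lower: Kif20b (1.57 ± 0.22, adjusted p = 0.00016), Mki67 (0.96 ± 0.20, adjusted p = 0.0062), Smc4 (0.95 ± 0.21, adjusted p = 0.0094) and Top2a (0.69 ± 0.13, adjusted p = 0.0021). Of these, 3 are chromosome structure genes. The libraries of the 2 lineages did not overlap for any of the 4, but the 4 were picked by this test, so this adds no support. The calls of Mki67 and Smc4 did not hold without Isl1Cre E7.75 replicate 2. At this stage the cardiomyocyte marker sum was lower in Isl1Cre, as given above, and 17 of the 20 markers passed as lower. At the 3 later stages no member passed in limma, beside 5.09%, 0.319% and 0.975% of all genes tested. DESeq2 called 1, 0 and 4 members there, beside 961, 120 and 232 of all genes. In limma, 6, 3 and 11 members had an unadjusted p under 0.05, beside 1913, 1323 and 1338 of the 10665 genes tested. The median member difference was 0.19, 0.12 and 0.35, and at E9.25 37 of 40 were above 0. At E8.75 it was -0.04 without Nkx2-5Cre replicate 1, 0.25 without Nkx2-5Cre replicate 2 and 0.06 without Isl1Cre replicate 2. At E8.25 it was 0.11 and 0.29 without Nkx2-5Cre replicate 1 and replicate 2.

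Genes of the same programme outside the 40 were taken from 4 lists, and every gene named from them passed in the comparison given (limma). Of 71 tested other G2 and M genes, 15 fell and 3 rose with stage in Nkx2-5Cre and 13 fell and 3 rose in Isl1Cre, beside 11.6% of all genes tested falling and 13.2% rising in the former and 10.2% and 13.0% in the latter. The steepest were Cenpl (-0.94) and Oip5 (-0.91) in the former and Melk (-0.98) and Cdca2 (-0.85) in the latter. Their average lineage difference passed as higher in Isl1Cre for 4, including Incenp (0.52), Spc25 (0.42) and Smc2 (0.42), and lower for none, beside 3.68% of all genes tested. At E7.75 it was 8 higher, beside 3.33% of all genes tested, with Smc2 at 1.30, Prc1 at 1.18 and Fbxo5 at 0.89. Of 16 tested regulators of G2 and M transcription, 6 fell in Nkx2-5Cre, led by Foxm1 (-1.18 per day), the activator of late cycle genes, and the DREAM subunits Tfdp1 (-0.88) and E2f4 (-0.80). In Isl1Cre 2 fell, Nfyb (-0.60), a subunit of the CCAAT-binding factor, and Rbbp4 (-0.33), a share near that of all genes tested.

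Of 47 S phase genes, 9 fell and 1 rose in Nkx2-5Cre, with Uhrf1 (-0.74), Cdca7 (-0.68) and Rrm2 (-0.54) the steepest, and 19 fell in Isl1Cre, led by Slbp (-1.03), Chaf1b (-1.01) and Cdc6 (-1.01). Of all genes tested, 11.6% fell and 13.2% rose in Nkx2-5Cre, and 10.2% fell and 13.0% rose in Isl1Cre. The balance of the S phase list was not tested against that of the mitosis genes, and the Isl1Cre mitosis count was 25 without the single E9.25 library. The summed S phase level in the Isl1Cre E9.25 library was 3534 CPM, below both E8.75 libraries of that lineage (3691 and 3717), while the summed mitosis level was above them (5591 against 4037 and 4231). For 3 S phase genes, beside 0.694% of all genes tested, the Isl1Cre slope was below the Nkx2-5Cre slope: Hells by -0.93, Slbp by -0.87 and Pcna by -0.52. Of 4 tested Cdk inhibitors, Cdkn1c, which encodes p57, rose in both lineages (0.82 and 1.11 per day), and Cdkn2d rose in Isl1Cre (0.62).

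Within single libraries the mitosis genes varied together from cell to cell, to unequal degrees. For each gene, Spearman's rho between its level and the mean of the other 39 was computed over the thinned cells of each library and averaged over the 15 libraries. It was 0.571 for Ube2c, 0.526 for Top2a, 0.510 for Ccnb1, 0.4996 for Cenpf and 0.455 for Cks2, 0.332 at the median, and lowest for Dlgap5 (0.137), Lbr (0.108) and Ckap2 (0.105). Of the 40, 31 were positive in all 15 libraries. Genes detected in more cells had higher values (rho 0.766 across the 40 genes, which share cells and depth), and the order was not adjusted for this. Nusap1, Hmmr and Cenpe, each with a count in 26.1% to 28.0% of thinned cells, nevertheless reached 0.391 to 0.405, and Lbr, at 24.2%, did not. The closest pair was Ube2c and Ccnb1 (0.442), followed by Cenpf and Ube2c (0.401). The 27 genes with CHR letters had a median of 0.322 and the 8 without them 0.398.

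**Figure D4:**
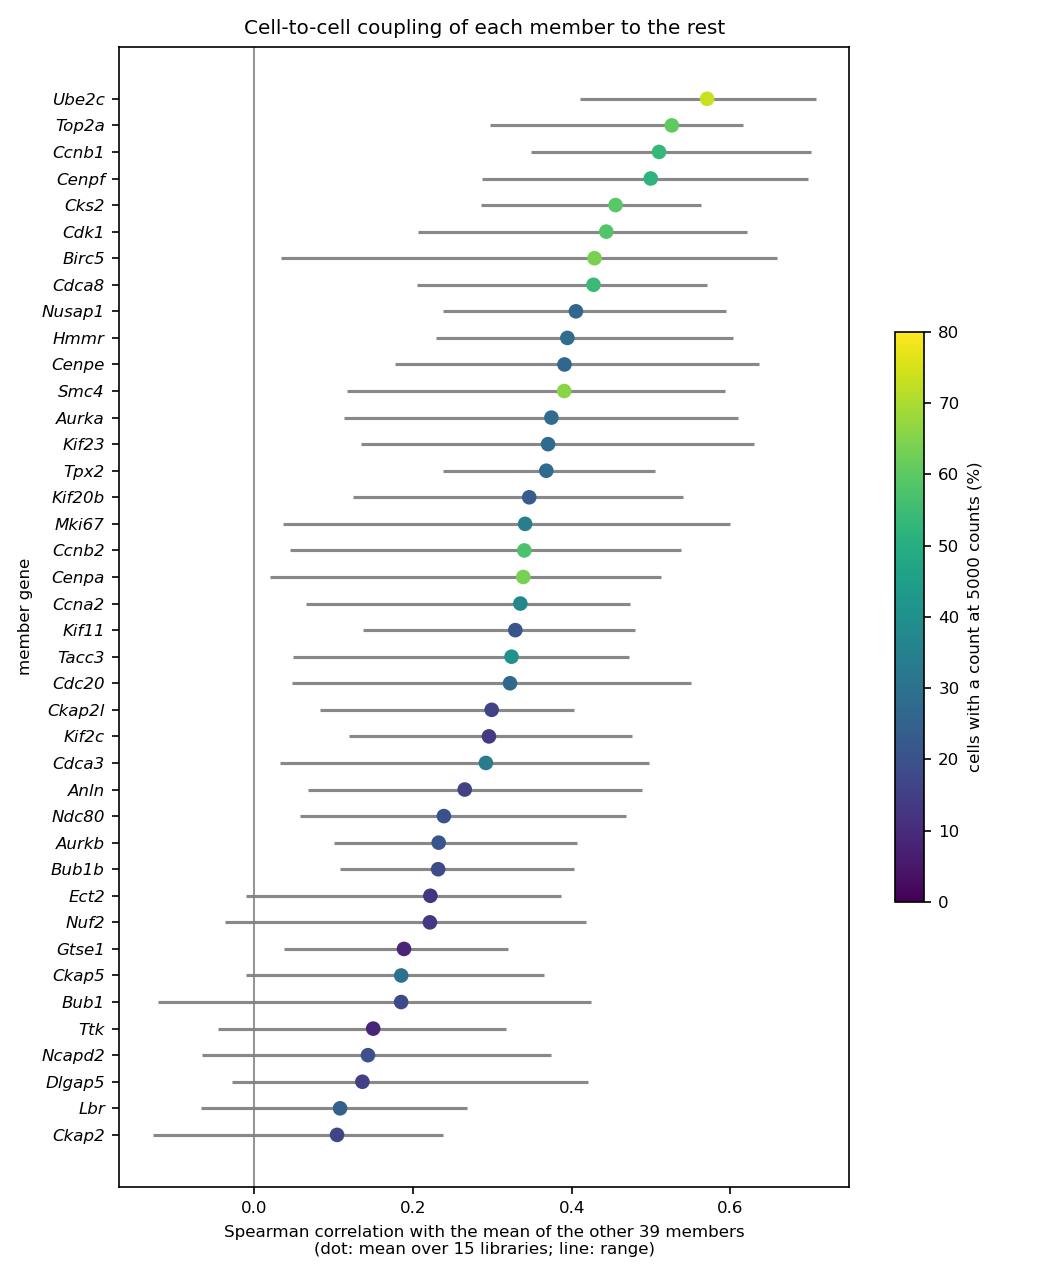
Spearman correlation of each member with the mean of the other 39 over thinned cells. Dots are means over 15 libraries, lines run from the lowest to the highest library, and colour gives the percentage of cells with a count. Ube2c is highest at 0.571 and Ckap2 lowest at 0.105.

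The genes outside the 40 that most resembled the score across cells, of 4948 genes with a count in at least 10% of thinned cells, were Hmgb2 (mean rho 0.605), Kpna2 (0.473), Prc1 (0.415), Spc25 (0.412), Smc2 (0.388), Fam64a (0.369), H2afz (0.347), Sgol2a (0.339), Bub3 (0.333) and Kif22 (0.322). Of these 10, 7 are on the list of other G2 and M genes. The sum of that list had a median rho with the score of 0.806 over libraries, and the sum of the S phase genes 0.158, with 5 libraries negative. The sum of cardiomyocyte markers had a median rho of -0.27, and the sums of endothelial, endoderm, blood and early mesoderm markers -0.01, -0.11, 0.01 and -0.02.

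Tnnt2, which encodes cardiac troponin T of the thin filament, was detected in every kept cell, and its linear slope was positive in each lineage, at 0.88 and 1.56 log2 units per day. The Nkx2-5Cre libraries had 1818 and 1835 CPM at E7.75, 4379 and 5135 at E8.25, 6445 and 6566 at E8.75, and less at E9.25, 4843 and 4302 CPM. Isl1Cre had 960.03 and 1313, 3374 and 3604, 5183 and 5506, and 5693 CPM, highest in its last library. Across the cells of a library the mitosis score was negatively related to Tnnt2 in 13 of 15 libraries. The coefficient (Spearman) ran from -0.49 to 0.15 with a median of -0.22 at full depth, and from -0.47 to 0.20 with a median of -0.18 in thinned cells. The exceptions were both Isl1Cre E7.75 libraries, at 0.05 and 0.15 at full depth and 0.20 and 0.12 in thinned cells, of which 26 of 87 and 22 of 83 had no Tnnt2 count. The most negative were both Isl1Cre E8.25 libraries, at -0.46 and -0.47. Each rho describes the cells of 1 library, which share its preparation. CPM is a share of a cell's total, so a cell with more RNA of contractile genes has a smaller share for all others. The part of this in the relation to Tnnt2 was not tested.

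Split at the library median of Tnnt2, the summed level of the 40 genes in thinned cells was lower in the Tnnt2-high cells of 11 of 15 libraries. In Isl1Cre at E8.25 it was 4690 and 3939 CPM in the Tnnt2-high cells against 6535 and 6283 in the Tnnt2-low cells, ratios of 0.718 and 0.627. In Isl1Cre at E7.75 it was 7029 and 7249 against 5582 and 5914, ratios of 1.26 and 1.23, and there the Tnnt2-low cells averaged 97.8 and 152 CPM of Tnnt2 and 4502 and 3100 CPM of endoderm markers. The Tnnt2-low cells of the E8.25 pair also held 4309 and 4291 CPM of endoderm markers, against 2033 and 2057 in the Tnnt2-high cells. The cardiomyocyte markers of this pair summed to 15952 and 15152 CPM in the Tnnt2-low cells and 50048 and 50100 CPM in the Tnnt2-high cells. Endoderm markers were instead higher in the Tnnt2-high cells of both lineages at E8.75, of Nkx2-5Cre at E9.25 and of Nkx2-5Cre E8.25 replicate 2. At E8.75 these cells had 935 and 1389 CPM against 509 and 1047 in Nkx2-5Cre, and 1156 and 1206 against 786 and 841 in Isl1Cre. Endothelial markers were higher in the Tnnt2-low cells of all 15 libraries, at 187 to 1209 CPM against 60.9 to 257 in the Tnnt2-high cells. Blood markers were 2317 and 2132 CPM against 265 and 89.5 in the Nkx2-5Cre E8.75 pair. The part of other cell types in the difference between the Tnnt2-low and Tnnt2-high cells was not tested. The other 2 libraries with a ratio above 1 were Nkx2-5Cre E8.25 replicate 1 (1.02) and Nkx2-5Cre E9.25 replicate 2 (1.27), and the partner library of the latter had 0.727. By gene, 37 of the 40 had a negative mean rho with Tnnt2, from -0.18 for Birc5 to 0.03 for Gtse1. The share of all genes with a negative mean rho was not computed, so this count does not set the members apart.

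**Figure D5:**
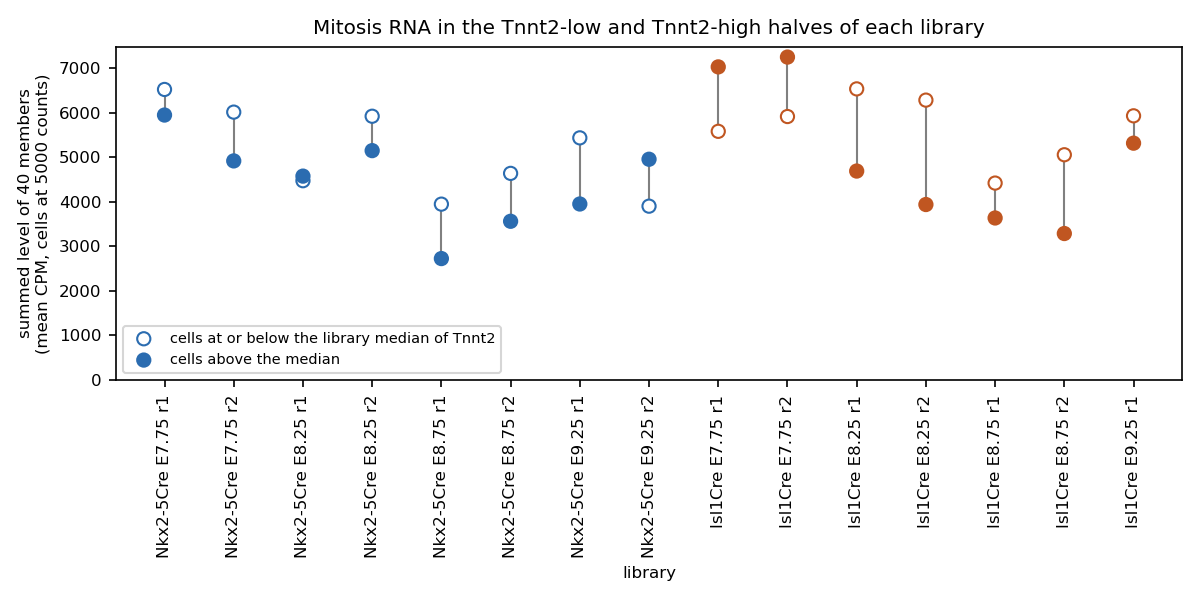
Summed level of the 40 mitosis genes, as mean CPM in cells thinned to 5000 counts, in the cells at or below (open) and above (filled) the library's median Tnnt2. The filled point is the lower in 11 of 15 libraries and the higher in both Isl1Cre E7.75 libraries.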

How the data were processed

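Single-cell RNA-seq of 15 mouse libraries was analysed. Heart cells were FACS-sorted or trypsin-digested without a sort (per the labels' protocols; which applies to a library is not given), picked by mouth pipette and taken through a modified Smart-seq2 protocol with cell barcodes and UMIs that keeps 3' ends. Levels are therefore not compared between genes. Reads were handled with CASAVA 1.8, TopHat2 2.0.12 and HTSeq on mm10, per the submitters' processing notes, which give no parameters. The lineage and stage of a library come from its title and stage label.

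The authors deposited CPM for each gene in each cell. These values were whole multiples of the value of 1 count for 100% of low values (tolerance 0.1 of that value), which gave whole counts back; whether these are reads or UMIs is not stated. The main tests had been planned on CPM; count tests on the recovered counts are alternatives. Of 1400 cells, 1332 with at least 2000 counts and 1000 genes were kept (61 of 80 in Isl1Cre E8.75 replicate 1). No doublet caller was run and no cell name occurred in more than 1 library. Totals were 8165519 to 38321215 counts per library.

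Mean CPM per library was TMM-scaled, and log2(CPM + 1) of genes with at least 5 CPM in at least 2 libraries was fitted with limma 3.58.1 (R 4.3.3; 1 mean per group, 7 residual degrees of freedom; Benjamini-Hochberg, threshold 0.05). Fold changes on this scale understate changes of low genes. Per-cell work used Python 3.11.15, numpy 2.4.6, pandas 2.3.3 and scipy 1.17.1. In simulated counts of the lineage average with 200 of 10665 genes changed, the fit recovered 96% of 2-fold and 100% of 4-fold changes, with 8 false calls. The simulation had a fixed spread, the same levels at all stages and no difference between embryos. Smaller changes and the other comparisons were not simulated.

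Alternatives were a pseudocount of 10, no filter, no TMM, each library left out, a replicate block, DESeq2 1.42.0, edgeR 4.0.16, all cells, cells thinned to 5000 counts, no E7.75 libraries, and group means; leaving out E8.75 and testing the steps between stages were added after seeing the data. Members and lists were chosen with earlier results of these data known. Values per library are given for members that passed in a lineage or slope comparison (at most the 6 largest in each direction) and for Ccnb1, Cdk1, Top2a and Mki67; other lists are represented by their 3 largest changes, and likeness by the 10 highest correlations.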

Additional observations from a re-analysis of the deposited data

Results flagged for a closer look

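Of the 40 mitosis genes, 2 had stage slopes that differed between the lineages by the test of that difference (Isl1Cre minus Nkx2-5Cre, log2 units per day, limma with Benjamini-Hochberg adjustment). The difference for Ube2c was 0.63 ± 0.15 (adjusted p = 0.029). Without the single Isl1Cre E9.25 library it was 0.17 (adjusted p = 0.63), and the call was also lost without Nkx2-5Cre E7.75 replicate 1, Nkx2-5Cre E9.25 replicate 2 or either Isl1Cre E7.75 library. The difference for Kif20b was -0.95 ± 0.22 (adjusted p = 0.023). It was -1.74 (adjusted p = 0.00021) without the Isl1Cre E9.25 library and -0.28 (adjusted p = 0.78) without the E7.75 libraries. This call was lost without Nkx2-5Cre E7.75 replicate 2, Nkx2-5Cre E9.25 replicate 1 or either Isl1Cre E7.75 library.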

How the results depend on the processing

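Counts are of members that passed. The lineage average (6) gave 2 without the filter, 1 with all cells, 1 thinned, 1 without E7.75 and 0 with group means. E7.75 (4) gave 1 with all cells; E8.25 and E9.25 (0) gave 1 and 4 in DESeq2. The Nkx2-5Cre slope (16) gave 7 thinned and 0 without E7.75. The Isl1Cre slope (7) gave 3 without the filter, 3 with all cells, 1 thinned, 1 without E7.75 and 1 without E8.75. The slope difference (2) gave 1 without the filter, 1 in edgeR, 0 with all cells, 1 thinned, 0 without E7.75 and 1 without E8.75. In Nkx2-5Cre, the step to E8.25 (4) gave 1 without the filter, 2 with all cells and 0 thinned; to E8.75 (1), 4 in DESeq2 and 0 with all cells; to E9.25 (1), 2 in DESeq2 and 0 without the filter, in edgeR, with all cells and thinned. In Isl1Cre, the step to E8.25 (5) gave 2 without the filter, 2 in DESeq2, 0 in edgeR and 1 thinned; to E8.75 (5), 2, 13, 9 and 2; to E9.25 (0), 1, 4, 1 and 1, and 1 with all cells. The score slope of -1.02 in Nkx2-5Cre was -0.63 thinned and -0.56 with a pseudocount of 10; that of -0.55 in Isl1Cre was -0.34 with the latter. The Tacc3 slope in Isl1Cre turned to 0.10 without E7.75. The cause of these changes was not tested.

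Leaving out single libraries gave 3 to 8 members for the average, 2 to 3 at E7.75, 0 to 1 at E8.25 and at E9.25, 8 to 18 and 2 to 25 for the slopes, 0 to 6 for their difference, 0 to 3, 0 to 2 and 0 to 1 for the Nkx2-5Cre steps, and 0 to 3 and 1 to 6 for the Isl1Cre steps to E8.25 and E8.75. The score difference ran from 0.11 to 0.33 and the Isl1Cre score slope from -1.54 to -0.50. Of 51 calls, 14 survived every such removal; 51 were kept with a pseudocount of 10, 49 without TMM, 39 in DESeq2, 33 in edgeR, 27 without the filter, 27 with all cells and 16 thinned.

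Over all genes, the average called 783, with 495 for all cells, 265 thinned, 261 without E7.75 and 1 for group means. E7.75 called 760 (463 without the filter, 279 thinned), E8.25 543 (303 without the filter, 961 in DESeq2, 357 with all cells, 170 thinned), E8.75 34 (14 to 120) and E9.25 104 (34 to 232). The slopes called 2643 and 2477, with 1089 and 1154 thinned and 69 and 820 without E7.75; their difference called 276 (117 thinned, 542 in DESeq2).

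Library numbers did not pair samples: over 21 pairs of groups, deviations of same-numbered libraries correlated at -0.03 to 0.17. With the replicate block 50 of 51 calls were kept, Cdc20 in Isl1Cre being lost (6 members there, 6 for the average, 16 in Nkx2-5Cre, 4 at E7.75). Each group probably holds 1 embryo, 1 group has a single library, and thinning lowers the counts behind each gene, which limits what can be called.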
